A study of Mus musculus with 56 samples.

Results

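Promoter regions that carried RNA polymerase II phosphorylated at serine 5 (RNAPII-pS5) were followed in bone marrow-derived macrophages (BMDMs), which are macrophages grown from mouse bone marrow, before and after 1 hr of interleukin-4 (IL-4). The peaks of the 4 RNAPII-pS5 lists of this experiment were merged where they overlapped by at least 1 bp. A merged region was kept when it held a peak in all 4 lists and its highest-scoring peak was annotated as lying at a transcription start site. Of 41245 merged regions, 22029 had a peak in all 4 lists, and 6750 of these were such promoter regions. The other 15279 regions with a peak in all 4 lists served for comparison, and 1013 further promoter regions were left out because at least 1 list had no peak there. The selection used position and presence, and no difference between the treatments.

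All cells came from wild-type C57BL/6 mice 8 to 12 weeks old and were differentiated for 6 days in L929 supernatant. RNAPII-pS5, RNAPII-pS2, H3K27Ac, p300, PU.1, HDAC1, HDAC2, and HDAC3 were profiled by ChIP-seq in 2 untreated samples and 2 samples given IL-4 (20 ng/ml, 1 hr). In an LPS experiment, RNAPII-pS5, RNAPII-pS2, and the NF-κB subunit p65 were profiled in 2 samples each of 4 groups. These were untreated cells (ctrl/ctrl), cells given IL-4 (20 ng/ml) for 24 hr (IL-4/ctrl), cells given LPS (100 ng/ml) for 1 hr (ctrl/LPS), and cells given LPS for 1 hr after 24 hr of IL-4 (IL-4/LPS). The LPS dose is that of the sample labels, and the study's methods give it as 100 nM. The study describes its replicates as independent and biological, but the labels tie no sample to an animal or a culture. The p-values thus rest on the spread between these samples, part of which may be technical. The test used for single regions (limma) draws the spread of each region toward that of regions with similar levels. An SE or limma p-value therefore does not rest on a region's own replicates alone.

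The largest subunit of RNA polymerase II has a long C-terminal tail of repeats, and serine 5 of the repeat is phosphorylated as the enzyme initiates. Serine 5-phosphorylated polymerase therefore gathers at start sites and at enhancers, where it also pauses, while phosphorylation of serine 2 accompanies elongation. IL-4 acts on macrophages through the kinases of its receptor and the transcription factor STAT6, which binds DNA as a dimer, and it drives alternative polarization. H3K27Ac is a histone mark of active promoters and enhancers that is written by acetyltransferases such as p300 and removed by deacetylases.

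The promoter regions belonged to 6578 gene names, of which 6413 had 1 region. By the annotation, 6485 regions belonged to protein-coding genes, 243 to other RNA genes, 19 to pseudogenes, and 3 to snoRNA genes. They were 883 bp wide in the median (244 to 2985 bp), and the centre of the highest peak lay 64 bp upstream of the start site in the median (a distance of −64 bp, quartiles −217 and 32 bp). Of the 6589 regions that could be set beside RefSeq start sites, 932 held starts on both strands and 953 held starts of at least 2 genes, so a change at such a region cannot be given to 1 of them. A further 1583 held no RefSeq start. As a check of the cell type, Cd68 and Mertk were the only 2 of 12 macrophage markers with a promoter region of this kind. Of the 12, 10 had an RNAPII-pS5 region of any position, and no region bore the name Adgre1 or Spi1. Here and in the gene lists below, genes were matched by the names in the annotation alone. A gene listed there under another name would be missed. None of 48 markers of 6 other cell types (T cell, B cell, neutrophil, erythroid, fibroblast, and endothelial) had such a promoter region, while 5, 3, 5, 2, 2, and 5 of the 8 markers of these types had an RNAPII-pS5 region of any position. Cd68 had RNAPII-pS5 peak scores of 27.1 and 27.7 untreated and 27.3 and 26.4 after IL-4.

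Upstream sequence of promoters with large changes is shown to let the base composition be seen beside the values. The letters are the 250 bases before the start site in RefSeq (GRCm38.p6, the assembly of the files), written 5′ to 3′ with every CG in capitals. Itgb8 and Lmtk2 were among the 4 largest rises, and 2200002J24Rik, Prkag2, Rasgef1a, and Ap2m1 were the 4 largest falls. The table of promoters matched 5454 of the promoter regions, and Tbc1d16 and Zfp36l2, also among the 4 largest rises, had no entry. Each sequence overlaps its RNAPII-pS5 region, that of 2200002J24Rik at the edge only.
Itgb8, chr12:119238277-119238526, minus strand: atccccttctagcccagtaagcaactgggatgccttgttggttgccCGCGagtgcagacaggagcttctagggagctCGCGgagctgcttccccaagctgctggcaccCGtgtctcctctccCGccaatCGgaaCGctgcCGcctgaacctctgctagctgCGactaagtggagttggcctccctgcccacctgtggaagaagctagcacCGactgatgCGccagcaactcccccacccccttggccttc
Lmtk2, chr5:144100111-144100360, plus strand: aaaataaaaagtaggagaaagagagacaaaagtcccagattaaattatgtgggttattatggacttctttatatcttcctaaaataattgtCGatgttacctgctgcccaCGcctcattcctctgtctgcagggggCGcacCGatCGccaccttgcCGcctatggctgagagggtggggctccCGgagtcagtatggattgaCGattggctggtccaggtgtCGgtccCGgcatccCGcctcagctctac
2200002J24Rik, chr7:30698676-30698925, plus strand: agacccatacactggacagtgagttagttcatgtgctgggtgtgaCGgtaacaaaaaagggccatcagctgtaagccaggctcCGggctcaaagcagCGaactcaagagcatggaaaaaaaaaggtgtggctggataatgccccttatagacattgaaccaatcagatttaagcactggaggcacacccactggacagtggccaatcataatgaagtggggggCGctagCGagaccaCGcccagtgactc
Prkag2, chr5:24908510-24908759, minus strand: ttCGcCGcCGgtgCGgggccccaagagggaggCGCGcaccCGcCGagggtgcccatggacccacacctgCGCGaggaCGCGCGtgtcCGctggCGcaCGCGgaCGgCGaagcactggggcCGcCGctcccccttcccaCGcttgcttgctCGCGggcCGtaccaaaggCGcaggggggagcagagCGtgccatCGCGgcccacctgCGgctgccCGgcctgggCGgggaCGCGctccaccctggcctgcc
Rasgef1a, chr6:118066135-118066384, plus strand: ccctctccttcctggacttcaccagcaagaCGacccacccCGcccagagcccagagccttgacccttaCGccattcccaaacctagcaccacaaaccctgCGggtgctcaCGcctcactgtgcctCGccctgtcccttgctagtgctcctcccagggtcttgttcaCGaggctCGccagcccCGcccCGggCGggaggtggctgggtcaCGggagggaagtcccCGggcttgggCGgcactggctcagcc
Ap2m1, chr16:20535230-20535479, plus strand: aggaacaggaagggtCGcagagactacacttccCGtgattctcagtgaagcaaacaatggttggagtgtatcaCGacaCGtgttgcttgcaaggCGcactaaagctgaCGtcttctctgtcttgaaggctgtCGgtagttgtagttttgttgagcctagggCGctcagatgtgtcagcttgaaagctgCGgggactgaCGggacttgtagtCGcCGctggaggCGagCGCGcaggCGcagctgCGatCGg
The ratio of observed to expected CG was 0.507 for Itgb8, 0.682 for Lmtk2, 0.369 for 2200002J24Rik, 0.913 for Prkag2, 0.512 for Rasgef1a, and 0.974 for Ap2m1. The median was 0.786 over the 5454 matched promoters and 0.374 over all 32851 RefSeq promoters. The matched promoters of regions that rose after IL-4 had a median of 0.743, and those of regions that fell had 0.764. The letters TATAAA, searched on the strand of the gene only, stood in 3.17% of the matched promoters and in 7.59% of all promoters.

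STAT dimers read the letters TTC and GAA separated by a few bases, and STAT6 is known to favour a gap of 4. The letters TTCNNNNGAA, which read the same on both strands, stood in 5.85% of all 32851 promoters of this length, in 4.53% of the 5454 matched promoters, in 12.5% of the 128 matched promoters that rose, and in 6.90% of the 29 that fell. Windows of 40 bases with these letters in capitals are given for 4 risers with the highest log2 changes among those with a match, for Nek7, and for the 2 that fell. They were chosen after the values were seen.
Gm19434, chr6:135188268-135188307, plus strand: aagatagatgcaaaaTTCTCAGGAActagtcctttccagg
Uchl3, chr14:101653796-101653835, plus strand: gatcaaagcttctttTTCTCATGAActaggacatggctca
Arpp19, chr9:75037593-75037632, plus strand: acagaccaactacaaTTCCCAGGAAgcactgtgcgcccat
Lair1, chr7:4063261-4063300, minus strand: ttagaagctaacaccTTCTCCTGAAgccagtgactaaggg
Nek7, chr1:138619812-138619851, minus strand: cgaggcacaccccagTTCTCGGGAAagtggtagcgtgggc
Gstm1, chr3:108018058-108018097, minus strand: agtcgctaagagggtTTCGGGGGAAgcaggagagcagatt
Slc43a2, chr11:75531886-75531925, plus strand: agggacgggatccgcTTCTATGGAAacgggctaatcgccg
A gap of 3 (TTCNNNGAA) stood in 7.02% of all promoters, 5.85% of the matched ones, 7.81% of those that rose, and 3.45% of those that fell. A match is a description of the letters and not evidence of binding, and no share was tested.

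The deposited score of an RNAPII-pS5 peak is a significance on the −log10 scale (of p or q, which is not given), and the highest score in a region was its level. The score grows with enrichment and with sequencing depth, and depth was unknown because no read counts were analysed here. The number of RNAPII-pS5 peaks in a sample stands in for it, at 35424 and 30639 untreated and 31883 and 30420 after IL-4. Promoter regions had a median score of 54.1 and 37.0 in the 2 untreated samples and of 46.5 and 44.1 in the 2 IL-4 samples. The other regions had 19.2 and 13.6 untreated and 14.97 and 13.6 after IL-4. Mean scores of the promoter regions ran from 9.32 at the 5th percentile to 118 at the 95th, with a median of 44.6 against 14.5 for the other regions. Across the promoter regions, log2 scores of any 2 of the 4 samples had a Pearson r between 0.921 and 0.947, as a description over 6750 regions.

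The highest levels belonged to Scarna2, a small RNA of the Cajal body that guides RNA modification, and to Taf13, Itprip, Polr2a, and Srsf7. Scarna2 scored 306 and 274 untreated and 259.9 and 269 after IL-4. Polr2a encodes the RNAPII subunit that the antibody itself detects, and its promoter scored 235 and 245 untreated and 242 and 233 after IL-4. Srsf7, a splicing factor, scored 254 and 229.9 untreated and 235 and 232 after IL-4. None of the 5 passed the test after IL-4, and their log2 changes lay between −0.02 and 0.12.

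After 1 hr of IL-4, 163 of the 6750 promoter regions rose and 37 fell. The rises included Tbc1d16, Itgb8, Hbegf, Fos, and Nek7, and the falls included 2200002J24Rik, Ap2m1, Nr1h3, and Per1. Log2 scores were centred on the sample's median and tested with limma, and a region was called at a Benjamini-Hochberg adjusted p of at most 0.05 over all 22029 regions. The share that rose was 2.41%, near the 2.63% of all 22029 regions that were called higher, and the share that fell was 0.548%, under the 1.47% of all regions that were called lower. Among the other regions, 2.73% rose and 1.88% fell. A log2 change of 1 is a score 2 times as high. The called rises had a median log2 change of 0.79 (0.46 to 2.69), and the sizes of the called falls had a median of 1.05 (0.55 to 1.82). In bulk samples, polymerase at a promoter in fewer cells and less polymerase in each cell cannot be told apart.

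How many promoter regions pass depends on the scaling. With cyclic loess in place of the median, 85 rose and 48 fell, and 83 of the 163 rises and 32 of the 37 falls were still called, none with another sign. With quantile normalization the counts were 70 and 47, and without centring they were 4 and 2. When limma's prior spread was not allowed to follow the level, 0 passed in either direction, with 376 higher and 170 lower at an unadjusted p of at most 0.05. Leaving out each of the 4 samples in turn left 20 of the 163 rises and 4 of the 37 falls called every time. Without untreated replicate 2 the counts were 106 and 11, without IL-4 replicate 1 they were 82 and 32, and without IL-4 replicate 2 they were 58 and 35. As deposited, the scores of the groups overlapped for 18 of the 163 rises and for 0 of the 37 falls.

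**Figure D1:**
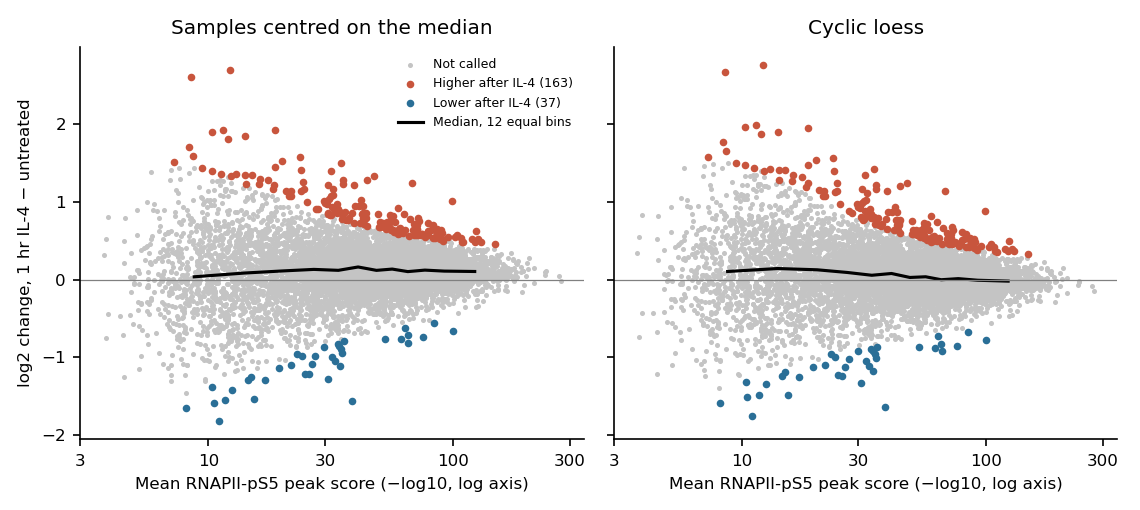
Log2 change in RNAPII-pS5 score after 1 hr of IL-4 (y axis) against the mean score of each of the 6750 promoter regions (x axis, log scale), with samples centred on their median (left) or scaled by cyclic loess (right). Red and blue points are the 163 higher and 37 lower regions called after centring, and the black line joins medians of 12 bins of equal size, which lie above 0 along its whole length on the left and near 0 at high scores on the right.

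Across all promoter regions the shift was small. The median log2 change was 0.11 for the promoter regions and −0.01 for the other regions, and 4492 of the 6750 (66.5%) were positive. Without centring the medians were 0.00 and −0.13 with 50.1% positive, and with cyclic loess they were 0.03 and −0.03 with 54.9% positive, so the majority of positive values was smaller with loess and absent without centring. After centring, both IL-4 samples lay above both untreated samples at 2307 promoter regions, or 34.2%, against 26.8% of all regions. Both lay below at 819, or 12.1%, against 21.1%. With scores as deposited, both IL-4 samples lay above at 761 promoter regions and below at 839. The shares over all regions are not given for the deposited scores, so these counts are not read as particular to promoters. The change, a difference between means of 2 samples, had an SD of 0.36 across the promoter regions. Single replicates of 1 treatment differed with an SD of 0.38 (untreated) and 0.37 (IL-4). A difference of means varies less than a difference of single samples, so these SDs cannot be compared directly.

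Within a sample, promoter regions can be set against the other regions without any centring. The median log2 score of the promoter regions exceeded that of the other regions by 1.495 and 1.45 in the untreated samples and by 1.64 and 1.70 in the IL-4 samples. Both IL-4 samples were above both untreated samples, and the difference between the treatments was 0.19. The exact two-sided permutation p was 0.3333, the smallest that 2 samples against 2 can give. With cyclic loess the difference was 0.05. When all regions were split into 4 equal groups by mean score, the promoter regions had median changes of 0.03, 0.11, 0.13, and 0.11 from the lowest to the highest group, and the other regions had −0.08, −0.08, −0.02, and 0.10. The gap between promoter and other regions was thus narrowest in the highest group, which held 3487 of the promoter regions.

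**Figure D2:**
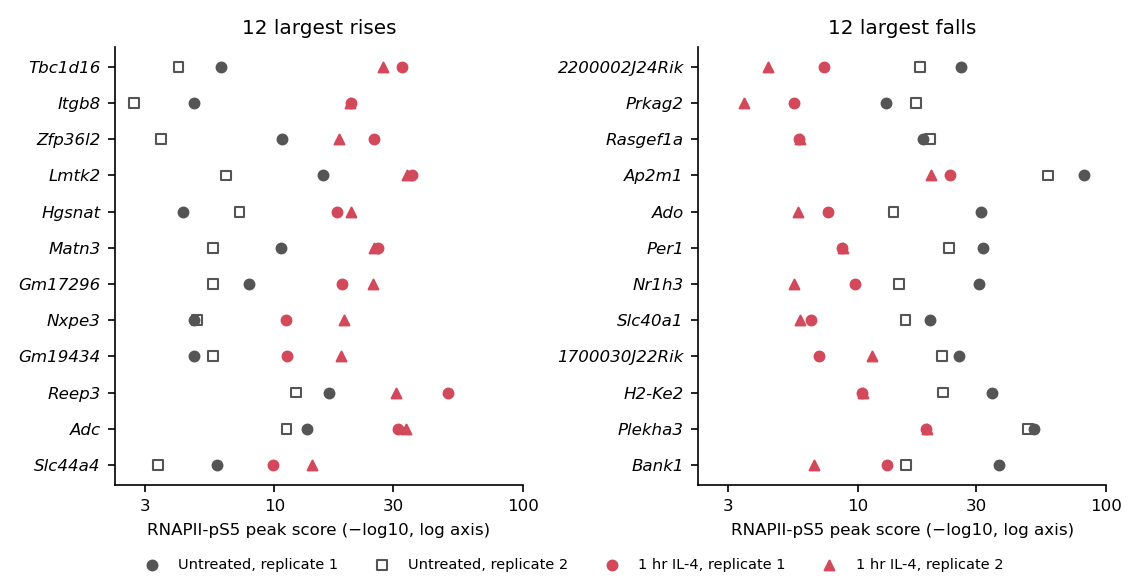
RNAPII-pS5 peak scores (x axis, log scale) in the 2 untreated samples (grey) and the 2 IL-4 samples (red) for the promoter regions with the 12 largest rises (left) and the 12 largest falls (right) past the threshold. The treatments do not overlap at any of the 24 regions, and most rises start from untreated scores under 12 while most falls start from scores above 15.

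The largest rise was at Tbc1d16 (chr11:119227451-119228684), which encodes a GTPase-activating protein for Rab proteins. The RefSeq start inside the region is that of Ccdc40. Its score was 6.09 and 4.11 untreated and 32.6 and 27.4 after IL-4. Both IL-4 scores were far above both untreated scores, with a log2 change of 2.69 ± 0.40 (SE, adjusted p = 4.66e-06). Itgb8 (chr12:119238355-119239130), the integrin subunit β8 that takes part in activation of TGF-β, scored 4.76 and 2.71 untreated and 20.3 and 20.1 after IL-4. The groups were again apart, with a log2 change of 2.60 ± 0.45 (SE, adjusted p = 8.36e-05). Zfp36l2, an RNA-binding protein that promotes decay of mRNAs, scored 10.7 and 3.49 untreated and 25.2 and 18.2 after IL-4. The groups did not overlap, and the change was 1.92 ± 0.42 (SE, adjusted p = 0.00272). Lmtk2, a membrane-anchored kinase, scored 15.7 and 6.36 untreated and 35.6 and 34.3 after IL-4, a change of 1.92 ± 0.34 (SE, adjusted p = 0.000118).

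Hgsnat, a lysosomal enzyme of heparan sulphate breakdown, scored 4.28 and 7.23 untreated and 17.9 and 20.4 after IL-4 and changed by 1.89 ± 0.44 (SE, adjusted p = 0.0049). Matn3, a matrilin of the extracellular matrix, scored 10.6 and 5.64 untreated and 26.0 and 25.2 after IL-4 and changed by 1.84 ± 0.38 (SE, adjusted p = 0.00135). Reep3, a protein that shapes the endoplasmic reticulum, scored 16.6 and 12.2 untreated and 49.99 and 30.8 after IL-4 and changed by 1.57 ± 0.30 (SE, adjusted p = 0.00037). IL-4 samples were above untreated samples at each of these 3 genes. Gm17296, whose region holds the start of Tarbp1, Nxpe3, Gm19434, Adc, and Slc44a4 made up the rest of the 12 largest rises, with log2 changes between 1.51 and 1.81. Leaving out any 1 of the 4 samples kept Tbc1d16, Itgb8, Lmtk2, Matn3, Reep3, and Adc past the threshold, and Slc44a4 lost it each time.

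The largest fall was at 2200002J24Rik, which scored 26.1 and 17.8 untreated and 7.31 and 4.37 after IL-4, a change of −1.82 ± 0.42 (SE, adjusted p = 0.00447). Ap2m1 (chr16:20534993-20536333), a subunit of the clathrin adaptor AP-2, scored 81.4 and 58.2 untreated and 23.6 and 19.7 after IL-4. Both untreated scores were far above both IL-4 scores, and the change was −1.57 ± 0.22 (SE, adjusted p = 1.94e-06). These 2 falls were called without any 1 of the 4 samples.

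Nr1h3, Slc40a1, and Prkag2 were among the other large falls. Nr1h3, the oxysterol receptor LXRα, scored 30.9 and 14.6 untreated and 9.78 and 5.57 after IL-4, a change of −1.41 ± 0.40 (SE, adjusted p = 0.0293). Without 1 sample the Nr1h3 change lay between −1.77 and −1.06 and was not called each time. Slc40a1, the iron exporter ferroportin, scored 19.5 and 15.6 untreated and 6.49 and 5.87 after IL-4, a change of −1.39 ± 0.42 (SE, adjusted p = 0.0438). Prkag2, a regulatory subunit of AMP-activated kinase, scored 13.0 and 17.2 untreated and 5.56 and 3.49 after IL-4, a change of −1.65 ± 0.46 (SE, adjusted p = 0.0249). The IL-4 scores were below both untreated scores at each of the 3, but with cyclic loess the adjusted limma p was 0.0502 for Nr1h3 and 0.0666 for Slc40a1, and Slc40a1 lost the call without any 1 of the 4 samples. Per1, a repressor of the circadian clock, scored 32.0 and 23.3 untreated and 8.66 and 8.71 after IL-4, a change of −1.54 ± 0.36 (SE, adjusted p = 0.00582). Rasgef1a, Ado, 1700030J22Rik, H2-Ke2 (at the start of Pfdn6), Plekha3, and Bank1 fell by 1.25 to 1.58 on the log2 scale.

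Of 13 genes that the study follows by name, 5 had a promoter region of this kind and 2 of these rose. By mRNA, mostly at later times, the study reports Hbegf and Klf4 as activated by IL-4 and Fos, Nlrp3, and Smad3 as repressed. After 1 hr it also reports lower RNAPII-pS5, RNAPII-pS2, H3K27Ac, and nascent RNA over the bodies of repressed genes. It reports lower RNAPII and H3K27Ac at STAT6-bound enhancers of selected ones. The promoter scores given here measure neither gene bodies nor enhancers. Fos and Klf4 had promoter changes of the other sign than their mRNA, although that at Klf4 did not pass. Hbegf, a ligand of the EGF receptor, scored 21.6 and 21.6 untreated and 62.8 and 50.5 after IL-4. The untreated samples were nearly equal and both IL-4 samples were more than 2 times as high, with a log2 change of 1.49 ± 0.24 (SE, adjusted p = 2.46e-05). Fos, a subunit of AP-1, scored 59.4 and 57.5 untreated and 99.2 and 83.4 after IL-4, also without overlap, and changed by 0.75 ± 0.17 (SE, adjusted p = 0.00447). Klf4 scored 99.3 and 76.2 untreated and 58.1 and 68.4 after IL-4, a change of −0.35 ± 0.17 (SE, adjusted p = 0.251) that did not pass. Nlrp3, the sensor of the inflammasome, scored 26.3 and 13.5 untreated and 20.3 and 17.0 after IL-4 with overlapping groups, and Smad3 scored 29.5 and 16.5 untreated and 18.5 and 21.7 after IL-4, also overlapping. Abca1, Cd14, Clec4d, Edn1, Il1b, Lyz1, Lyz2, and Tlr2 each had between 1 and 5 RNAPII-pS5 regions present in all 4 lists, none of them at a promoter by annotation. Il1b also had 1 promoter region, which at least 1 list lacked.

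In the list of the IL-4 pathway and its targets, 10 of 40 genes had a promoter region, 1 rose (Hbegf), none fell, and the median log2 change was 0.21 against 0.11 for all promoter regions. Batf3, a transcription factor, scored 14.3 and 9.81 untreated and 23.5 and 23.1 after IL-4, and Mgl2, a lectin of alternatively polarized macrophages, scored 11.7 and 14.5 untreated and 26.4 and 24.4 after IL-4. Neither overlapped between treatments, and the adjusted p was 0.0596 for Batf3 and 0.0558 for Mgl2, just outside the threshold. Il4ra, a chain of the receptor for IL-4, scored 66.9 and 45.8 untreated and 57.6 and 57.4 after IL-4, a change of 0.17 ± 0.19 (SE, adjusted p = 0.696).

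Calls in the gene lists stand beside shares of 2.41% higher and 0.548% lower over all promoter regions. Of 22 promoter regions of Toll-like receptor and NF-κB genes, 0 passed the limma test in either direction, 1 had an unadjusted p of at most 0.05, and the median was 0.08. Of 10 inflammasome regions 1 rose, that of Nek7, a kinase that binds NLRP3. Nek7 scored 44.4 and 26.6 untreated and 58.7 and 53.6 after IL-4 and changed by 0.82 ± 0.21 (SE, adjusted p = 0.0133). Without 1 sample the Nek7 change lay between 0.71 and 0.93 and was not called each time. Of 24 interferon pathway regions none passed and 1 had an unadjusted limma p of at most 0.05, with a median of 0.11. Among 8 regions of C-type lectin and Fc receptor genes 1 of 2 regions of Syk, the kinase downstream of these receptors, rose by 0.59 ± 0.18 (SE, adjusted p = 0.0496), and with cyclic loess its adjusted limma p was 0.131. Without 1 sample this Syk change lay between 0.50 and 0.68, and the call was lost whichever sample was left out. Clec12a, an inhibitory lectin, fell in the same list and scored 46.9 and 26.5 untreated and 16.2 and 16.8 after IL-4, with a change of −0.98 ± 0.29 (SE, adjusted p = 0.0355), a call that was lost whichever of the 4 samples was left out. The only promoter region of 29 inflammatory cytokine and chemokine genes was that of Il1rn, the antagonist of the interleukin-1 receptor, and it was not called.

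Cytosolic ribosomal proteins had 28 promoter regions with high scores (median 86.2), and 1 rose (Rpl18). Their median change was 0.02, or −0.10 with cyclic loess. Of 22 regions of elongation and pausing factors 1 rose, that of Ccnk, the cyclin K of CDK12, which scored 106 and 81.3 untreated and 129 and 121 after IL-4, although with cyclic loess its adjusted limma p was 0.0614. Without 1 sample the Ccnk change lay between 0.47 and 0.61 and was not called each time. Of 14 immediate-early and AP-1 regions 2 rose (Fos and Btg1) and 7 had an unadjusted limma p of at most 0.05, and of 16 glycolysis and hypoxia regions 1 rose (Epas1, which encodes HIF-2α). Epas1 scored 131 and 82.3 untreated and 159.9 and 136 after IL-4, a change of 0.62 ± 0.14 (SE, adjusted p = 0.00273). Among 12 regions of cholesterol and lipid genes Nr1h3 fell and Srebf1, the regulator of lipid synthesis, rose by 0.73 ± 0.21 (SE, adjusted p = 0.033). With cyclic loess the adjusted limma p was 0.0845 for Srebf1, 0.12 for Btg1, and 0.115 for Rpl18, and Srebf1 lost the call whichever sample was left out. None of 16 corepressor, deacetylase, and acetyltransferase regions and none of 9 regions of macrophage lineage factors passed (2 and 1 had an unadjusted limma p of at most 0.05).

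The study grouped IL-4-regulated genes into clusters A to E by RNA-seq, and only the gene names were used here. Clusters A to D hold induced genes and had 4, 63, 152, and 213 promoter regions. In them 1, 6, 9, and 15 regions rose and 0, 5, 5, and 0 fell, with medians of 0.40, 0.12, 0.12, and 0.13. Cluster E holds the repressed genes. It had 286 promoter regions, of which 8 rose and 5 fell, with a median of −0.06, or −0.12 with cyclic loess.

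H3K27Ac was read at the same regions as the tag number that HOMER normalizes, over windows of fixed width. It had a peak in all 4 samples at 5287 of the 6750 promoter regions (78.3%) and in none at 1004. The replicates agreed more closely than those of RNAPII-pS5, with an SD of 0.14 between 2 replicates in either treatment. After IL-4 it was called higher by limma at 1360 promoter regions (25.7%, against 25.0% of all 15318 regions tested) and lower at 543 (10.3%, against 28.6% of all regions tested). The median log2 change was 0.08 at promoter regions and −0.07 at the other regions.

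The largest H3K27Ac rise was at Rps6kc1, a kinase-like protein, where the signal was 78.9 and 85.0 untreated and 333 and 335 after IL-4. The change was 2.05 ± 0.07 (SE, adjusted p = 3.05e-43), while RNAPII-pS5 fell there, with scores of 121 and 85.6 untreated and 54.2 and 58.5 after IL-4 and a change of −0.74 ± 0.17 (SE, adjusted p = 0.00333). Socs1, the feedback inhibitor of cytokine receptor kinases, had an H3K27Ac signal of 175 and 168 untreated and 684 and 646 after IL-4, a change of 1.97 ± 0.06 (SE, adjusted p = 1.67e-50). Its RNAPII-pS5 scores were 51.9 and 35.2 untreated and 35.4 and 29.6 after IL-4, with overlapping groups. At Tbc1d16 both rose, with an H3K27Ac signal of 28.9 and 27.5 untreated and 117 and 106 after IL-4 and a change of 2.00 ± 0.12 (SE, adjusted p = 8.83e-28). Btbd3 had 13.2 and 16.9 untreated and 55.3 and 66.0 after IL-4, a change of 2.03 ± 0.16 (SE, adjusted p = 1.26e-20), and its RNAPII-pS5 change did not pass.

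**Figure D3:**
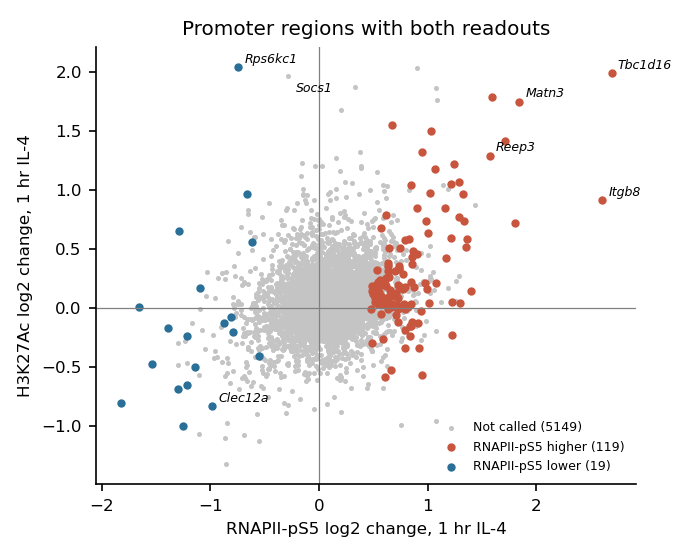
Log2 change in H3K27Ac signal (y axis) against log2 change in RNAPII-pS5 score (x axis) after 1 hr of IL-4 at the 5287 promoter regions with an H3K27Ac peak in all 4 samples. Of the 119 regions with higher RNAPII-pS5 (red), 97 lie above 0 for H3K27Ac, and Rps6kc1 and Socs1 stand at the top left of 0 for RNAPII-pS5.

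At promoter regions where RNAPII-pS5 rose, 119 of 163 had H3K27Ac in all samples, and H3K27Ac was higher at 52 of these and lower at 8, with a median of 0.19. Where RNAPII-pS5 fell, 19 of 37 had a value, 4 of these were higher and 8 lower, and the median was −0.20. Where RNAPII-pS5 was not called, the median was 0.08. In the other direction, the 1360 regions with higher H3K27Ac had a median RNAPII-pS5 change of 0.15 and the 3384 without an H3K27Ac call had 0.12, while the 543 with lower H3K27Ac had −0.03. The Pearson r between the 2 changes was 0.27 over the 5287 promoter regions and 0.61 over the other regions, as a description.

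For H3K27Ac, ribosomal protein promoters were higher at 22 of 24, with a median of 0.27. Rpl19, at 0.06, and Rps28, at 0.15, were the 2 that did not pass. In the IL-4 list 5 of 6 promoters with values were higher, with a median of 1.08. Mgl2 had an H3K27Ac signal of 94.5 and 75.9 untreated and 313 and 298 after IL-4 and Batf3 had 39.9 and 33.1 untreated and 125 and 118 after IL-4. In clusters A to D, H3K27Ac was higher at 2 of 2, 32 of 33, 84 of 94, and 66 of 160 promoters, and lower at 0, 0, 1, and 18. Cluster E had 14 higher and 97 lower of 184, with a median of −0.24. Of the genes the study follows, Klf4 had an H3K27Ac signal of 157 and 157 untreated and 200.3 and 206 after IL-4, which rose by 0.39 ± 0.07 (SE, adjusted p = 1.49e-06), beside an RNAPII-pS5 change that did not pass. Smad3 had 49.1 and 50.9 untreated and 32.4 and 37.8 after IL-4, and fell by 0.50 ± 0.14 (SE, adjusted p = 0.00114) on the log2 scale.

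p300 had a peak at 57.0% and 82.7% of the promoter regions in the untreated samples and at 85.1% and 86.3% after IL-4. Untreated replicate 1 stood apart, with 44787 p300 peaks in all against 66710 to 69360 in the other 3 samples. At the 3757 promoter regions with a peak in all 4 samples, 177 were higher (4.71%, against 9.12% of all regions tested) and 111 lower (2.95%, against 11.8%), with a median log2 change of 0.03. Without untreated replicate 1, 5253 promoter regions could be tested and 309 were higher (5.88%, against 11.2% of all regions tested) and 139 lower (2.65%, against 13.5%), with a median of 0.10. Without centring the median was 0.83 and 0 regions were called in either direction. Rps6kc1, Tbc1d16, Fam129b, and Rtn4 led. Rps6kc1 had p300 scores of 9.97 and 17.1 untreated and 193 and 179 after IL-4, a change of 3.04 ± 0.23 (SE, adjusted p = 3.79e-10). Tbc1d16 had 4.94 and 21.2 untreated and 134 and 167 after IL-4, a change of 3.07 ± 0.24 (SE, adjusted p = 7.87e-10). Rtn4 had 8.68 and 11.2 untreated and 126 and 133 after IL-4, a change of 2.91 ± 0.29 (SE, adjusted p = 4.29e-08), although its RNAPII-pS5 score changed by 0.03. Fam129b had 2.75 and 8.64 untreated and 65.4 and 76.3 after IL-4, a change of 3.06 ± 0.35 (SE, adjusted p = 3.65e-07), and its RNAPII-pS5 score rose by 0.91 ± 0.27 (SE, adjusted p = 0.0351), with an adjusted limma p of 0.061 after cyclic loess. Of the 163 regions with higher RNAPII-pS5, 82 had p300 in all 4 samples, and p300 was higher at 19 of these and lower at 2.

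**Figure D4:**
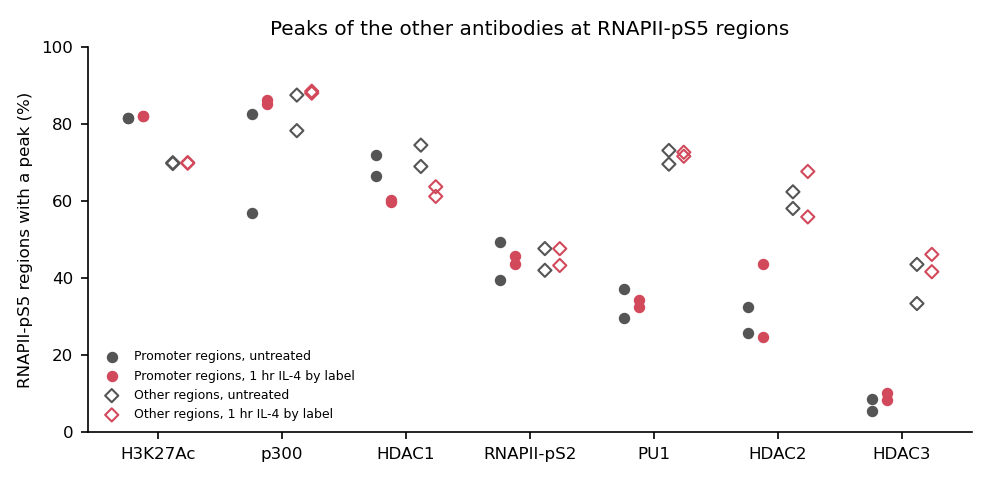
Share of the 6750 promoter regions (filled circles) and of the 15279 other RNAPII-pS5 regions (open diamonds) that overlapped a peak of each antibody, with 1 point per sample, grey for untreated and red for 1 hr of IL-4 by label. Peaks of HDAC3, HDAC2, PU.1, p300, and HDAC1 lay at promoter regions less often than at the other regions in each of their 4 samples. The gaps were widest for HDAC3, HDAC2, and PU.1. H3K27Ac peaks lay at promoter regions more often.

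PU.1, a factor that sets macrophage identity, had peaks at 29.6% to 37.1% of the promoter regions and 69.6% to 73.2% of the other regions over the 4 samples. At the 1467 promoter regions with PU.1 in all 4 samples, 6 were higher (0.409%, against 1.07% of all regions tested) and 0 lower (against 0.0267% of all regions tested), and 123 had an unadjusted limma p of at most 0.05. The higher count was 18 without untreated replicate 1, 8 without untreated replicate 2, 2 without IL-4 replicate 1, and 1 without IL-4 replicate 2. Tbc1d16 had PU.1 scores of 30.3 and 6.98 untreated and 105 and 89.8 after IL-4, a change of 2.38 ± 0.38 (SE, adjusted p = 0.000247), and Gm19434 had 20.5 and 24.3 untreated and 103 and 109.8 after IL-4, a change of 1.89 ± 0.32 (SE, adjusted p = 0.000304). At Hnrpll, whose region holds the start of 4933407O12Rik, PU.1 rose by 1.78 ± 0.42 (SE, adjusted p = 0.0163) while RNAPII-pS5 fell by 0.62 ± 0.18 (SE, adjusted p = 0.0296), and at Rnf24, where Gm30590 also starts, it rose by 2.03 ± 0.45 (SE, adjusted p = 0.00978).

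HDAC1 covered 59.8% to 71.9% of the promoter regions, with both IL-4 samples below both untreated samples there and at the other regions (61.2% to 74.5%). The 2 IL-4 samples also had fewer HDAC1 peaks in all (23270 and 22340 against 30511 and 26836). At 3083 promoter regions with HDAC1 in all 4, 2 were higher (0.0649%, against 0.0861% of all regions tested) and 3 lower (0.0973%, against 0.0478%). HDAC2 covered 24.8% to 43.6%, and 1 of 719 promoter regions was higher (0.139%, against 0.0794% of all regions tested) and 0 lower (against 0% of all regions tested), with 42 at an unadjusted limma p of at most 0.05. At Srf, a transcription factor of immediate-early genes, HDAC1 and HDAC2 were called higher with all 4 samples. Without any 1 of the 4 samples, or without centring, 0 promoter regions were called higher for either. Srf had HDAC1 scores of 8.34 and 4.25 untreated and 19.6 and 15.3 after IL-4 and HDAC2 scores of 8.62 and 8.1 untreated and 40.5 and 21.0 after IL-4. The changes at Srf were 1.86 ± 0.44 (SE, adjusted p = 0.0308) for HDAC1 and 1.70 ± 0.38 (SE, adjusted p = 0.0253) for HDAC2.

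HDAC3 was scarce at these promoters, with a peak at 5.45% to 10.4% of them and at 33.4% to 46.2% of the other regions. Of 219 promoter regions with HDAC3 in all 4 samples, 3 were higher (1.37%, against 1.58% of all regions tested) and 1 lower (0.457%, against 0.497%). Without IL-4 replicate 1, and also without IL-4 replicate 2, 0 were called in either direction. 2310010J17Rik had HDAC3 scores of 12.7 and 2.32 untreated and 28.4 and 27.2 after IL-4, a change of 2.05 ± 0.46 (SE, adjusted p = 0.00468), and Gm19434 had 11.0 and 13.0 untreated and 29.1 and 42.4 after IL-4. The study's methods give the same catalogue number for the HDAC3 and the H3K27Ac antibody, its resource table gives another, and which was used is not settled here.

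RNAPII-pS2 covered 39.5% to 49.3% of the promoter regions. Each peak in these 4 lists has a name with the other treatment than its sample's label, so changes are given for libraries as labelled and not read as effects of IL-4. Between the libraries labelled IL-4 and those labelled untreated, 23 of 2085 promoter regions were higher (1.10%, against 1.57% of all regions tested) and 17 lower (0.815%, against 1.74%), with a median of 0.04. Nudt16l1 had RNAPII-pS2 scores of 10.1 and 18.04 in libraries labelled untreated and 39.7 and 53.5 in libraries labelled IL-4, a change of 1.79 ± 0.27 (SE, adjusted p = 0.000399). Over the 2085 promoter regions, the changes by label in RNAPII-pS2 and in RNAPII-pS5 had a Pearson r of −0.13, and over the other regions r was −0.44. Over gene bodies the study reports that RNAPII-pS2 and RNAPII-pS5 binding correlated positively. The difference in sign was not tested.

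In the LPS experiment the same antibody was read at the promoter regions in samples that had no part in choosing them. RNAPII-pS5 peaks covered 62.2% and 58.5% of the promoter regions in ctrl/ctrl, 57.9% and 59.3% in IL-4/ctrl, 34.0% and 35.1% in ctrl/LPS, and 51.6% and 52.2% in IL-4/LPS. Coverage was lowest in both LPS samples without IL-4, and both IL-4/LPS samples lay between those and the groups without LPS. The other regions were covered at 43.1% and 45.5% in ctrl/LPS and at 47.7% and 48.1% in IL-4/LPS. The ctrl/LPS samples also had the fewest RNAPII-pS5 peaks in all, 14476 and 15349, against 17826 and 18207 in IL-4/LPS and 19279 to 22149 in the groups without LPS. The part of this difference in the coverage was not tested. RNAPII-pS2 peaks covered 67.1% and 66.0% of the promoter regions in ctrl/ctrl and 48.8% and 52.3% in IL-4/ctrl. With LPS they covered 48.5% and 48.3% in ctrl/LPS and 50.3% and 48.8% in IL-4/LPS. RNAPII-pS2 scores of this experiment are not given here.

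**Figure D5:**
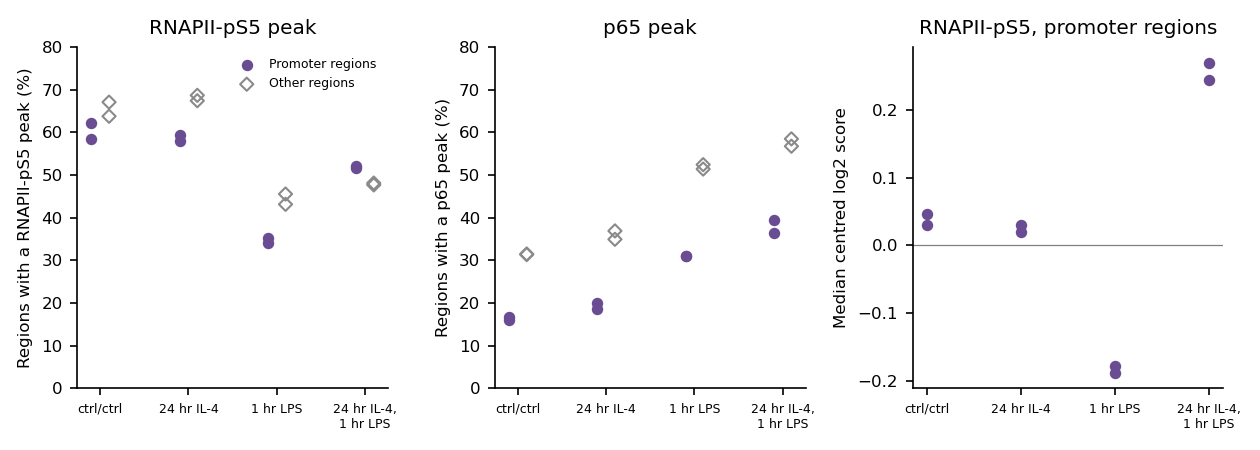
Share of promoter regions (filled circles) and other regions (open diamonds) with an RNAPII-pS5 peak (left) or a p65 peak (middle), and median centred log2 RNAPII-pS5 score of the 1408 promoter regions with a peak in all 8 samples (right), with 1 point per sample of the LPS experiment. RNAPII-pS5 coverage and level of promoter regions are lowest in the 2 ctrl/LPS samples, and p65 coverage is highest in the 2 IL-4/LPS samples.

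At 1408 promoter regions with a peak in all 8 samples, the groups were compared in 1 limma fit, so the comparisons share samples. IL-4 alone for 24 hr left 47 higher (3.34%, against 5.32% of all 4830 regions tested) and 29 lower (2.06%, against 3.71%), with a median of 0.00. LPS alone left 152 higher (10.8%, against 15.1% of all regions tested) and 268 lower (19.0%, against 12.7%), with a median of −0.20 against 0.13 for the other regions. IL-4 before LPS, against LPS alone, left 218 higher (15.5%, against 8.34% of all regions tested) and 36 lower (2.56%, against 10.8%), with a median of 0.37 against −0.18 for the other regions. The median level of the promoter regions in centred log2 score was −0.19 and −0.18 in ctrl/LPS, 0.27 and 0.24 in IL-4/LPS, and 0.02 to 0.05 in the groups without LPS.

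The counts in the LPS experiment moved with single samples and with the regions tested. With regions held in at least 2 samples, a sample without a peak was given the lowest score of the antibody's lists in this experiment. LPS alone then left 631 promoter regions higher and 532 lower, IL-4 before LPS left 298 and 86, and 24 hr of IL-4 alone left 157 and 187. These counts include changes set by the filled values, and the share over all regions is not given beside them. Without ctrl/ctrl replicate 1 the falls under LPS were 124, and without ctrl/ctrl replicate 2 they were 157. Without ctrl/LPS replicate 2 the rises under LPS were 87, and without ctrl/ctrl replicate 2 they were 95. Without each ctrl/LPS or IL-4/LPS sample in turn, 105 to 144 regions were higher and 11 to 20 lower after IL-4 before LPS. Without each ctrl/ctrl or IL-4/ctrl sample, 15 to 27 were higher and 6 to 9 lower after 24 hr of IL-4 alone. The median for LPS was −0.41 without centring and −0.00 with regions held in at least 2 samples, and the median for IL-4 before LPS was 0.58 and 0.17 under the same settings.

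The following genes were picked from the largest called changes in each comparison after the values were seen. Rcan1, an inhibitor of calcineurin, scored 7.57 and 7.36 in ctrl/ctrl, 13.1 and 10.2 in IL-4/ctrl, 49.5 and 48.5 in ctrl/LPS, and 58.1 and 64.6 in IL-4/LPS, a change of 2.92 ± 0.27 (SE, adjusted p = 6.32e-08) for LPS alone. The 4 LPS samples were all far above the 4 samples without LPS. Hist1h1e, a linker histone, scored 127 and 132 in ctrl/ctrl, 98.5 and 100.0 in IL-4/ctrl, 16.2 and 23.0 in ctrl/LPS, and 22.8 and 23.0 in IL-4/LPS. Both LPS groups were low there, with a change of −2.54 ± 0.18 (SE, adjusted p = 1.5e-09) for LPS alone.

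At Supt16, a subunit of the histone chaperone FACT, the score was 28.3 and 22.5 in ctrl/ctrl, 16.5 and 20.5 in IL-4/ctrl, 2.69 and 3.7 in ctrl/LPS, and 12.5 and 22.2 in IL-4/LPS. With LPS alone it fell by 2.79 ± 0.36 (SE, adjusted p = 7.31e-06) and was higher with IL-4 before LPS by 2.19 ± 0.36 (SE, adjusted p = 0.000241). Zfp809, a zinc finger repressor of retroviral elements, scored 35.8 and 28.8 in ctrl/ctrl, 37.2 and 27.7 in IL-4/ctrl, 4.56 and 6.12 in ctrl/LPS, and 25.2 and 22.3 in IL-4/LPS, the same order of groups. Usf1, a transcription factor of the E-box, went the other way and scored 40.6 and 36.5 in ctrl/ctrl, 42.8 and 35.2 in IL-4/ctrl, 22.9 and 32.3 in ctrl/LPS, and 12.3 and 7.74 in IL-4/LPS, a change of −1.68 ± 0.28 (SE, adjusted p = 0.000208) with IL-4 before LPS. Slc25a39, a mitochondrial carrier, led the rises with IL-4 alone, with 5.21 and 9.13 in ctrl/ctrl, 32.8 and 37.5 in IL-4/ctrl, 5.07 and 7.95 in ctrl/LPS, and 12.1 and 10.6 in IL-4/LPS, and its change after 1 hr of IL-4 was −0.14. Ifitm6, an interferon-induced membrane protein, scored 11.7 and 12.6 in ctrl/ctrl, 43.6 and 41.3 in IL-4/ctrl, 27.9 and 32.0 in ctrl/LPS, and 58.9 and 57.9 in IL-4/LPS, and the related Ifitm2 scored 42.3 and 35.6 in ctrl/ctrl, 14.1 and 15.6 in IL-4/ctrl, 47.5 and 43.6 in ctrl/LPS, and 37.3 and 37.5 in IL-4/LPS. With IL-4 alone Ifitm6 rose by 1.79 ± 0.22 (SE, adjusted p = 1.64e-05) and Ifitm2 fell by 1.41 ± 0.22 (SE, adjusted p = 0.000215).

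Whether the change with IL-4 differed with LPS was tested as an interaction, added after the data were seen. The IL-4 change was higher under LPS at 46 of the 1408 promoter regions (3.27%, against 1.78% of all regions tested) and lower at 10 (0.710%, against 2.98%). Of the other 3422 regions, 40 were higher and 134 lower. With regions held in at least 2 samples and missing values set to the lowest score, 126 promoter regions were higher and 109 lower. Cdk10, a cyclin-dependent kinase, scored 24.1 and 28.8 in ctrl/ctrl, 12.2 and 6.44 in IL-4/ctrl, 4.83 and 5.33 in ctrl/LPS, and 21.2 and 21.2 in IL-4/LPS, an interaction of 3.45 (adjusted p = 0.000472) on the log2 scale. It was low in IL-4/ctrl and ctrl/LPS and near the ctrl/ctrl level in IL-4/LPS.

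p65 covered fewer promoter regions than other regions in each of the 8 samples. It had a peak at 16.1% and 16.6% of the promoter regions in ctrl/ctrl, 20.0% and 18.5% in IL-4/ctrl, 30.9% and 31.1% in ctrl/LPS, and 36.3% and 39.4% in IL-4/LPS. The other regions ran from 31.3% in ctrl/ctrl to 58.5% in IL-4/LPS. The number of p65 peaks rose in the same order, from 9556 and 9706 in ctrl/ctrl and 10253 and 11026 in IL-4/ctrl to 26305 and 26820 in ctrl/LPS and 36738 and 38955 in IL-4/LPS, and its part in the coverage was not tested. Both ctrl/LPS samples and neither ctrl/ctrl sample had p65 at 618 promoter regions, and the reverse held at 36. Both IL-4/LPS samples and neither ctrl/LPS sample had it at 309, and the reverse at 91. The same counts over the other regions are not given, so these counts are not read as particular to promoters.

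Promoter regions with p65 in both ctrl/LPS samples numbered 1504, and 612 of them had RNAPII-pS5 in all 8 samples. LPS alone left 96 of these higher and 89 lower, with a median of −0.02, and among the 796 regions without such p65 it left 56 higher and 179 lower, with a median of −0.33. IL-4 before LPS left 82 higher and 27 lower with p65, at a median of 0.29, and 136 higher and 9 lower without it, at a median of 0.47. Over all 4830 regions tested, LPS alone left 15.1% higher and 12.7% lower, and IL-4 before LPS left 8.34% and 10.8%. The promoter regions with and without p65 were not tested against each other. In the 1 hr experiment the medians were 0.09 with p65 and 0.12 without.

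The 1 hr calls can be set beside the LPS experiment at the regions with values in both. Of the 163 regions that rose after 1 hr of IL-4, 21 had RNAPII-pS5 in all 8 samples, and after 24 hr of IL-4 alone 2 of these were higher and 1 lower, with a median of 0.06. Of the 37 that fell, 5 had values, none was called, and 1 was positive, with a median of −0.43. Among the 12 genes named as the largest changes with 24 hr of IL-4 alone, the changes after 1 hr lay between −0.30 and 0.48, and none passed the test there.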

How the data were processed

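ChIP-seq peak lists of 56 samples (9 antibodies) were used as deposited. Per the submitters' processing notes, the authors used BWA 0.7.10, SAMtools 0.1.19, MACS2 2.0.10, and HOMER 4.2 on mm10, and the study states a q-value cut-off of 0.01, peak calling per replicate, and removal of blacklisted regions. The deposited MACS2 score is on a −log10 scale, of p or q (which one is not given in the sources used here). The deposited H3K27Ac signal is HOMER's normalized tag number. Both move with depth, which is unknown, so a log2 change of a score is not a fold change in occupancy. The study itself compared reads with DiffBind.

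Peaks were merged and the highest value per region taken (Python 3.11.15, NumPy 2.4.6, pandas 2.3.3). Log2 values were centred on each sample's median over regions present in all samples of a comparison and tested with limma 3.58.1 (R 4.3.3, data.table, version 1.17.8) with a trended, moderated variance and Benjamini-Hochberg adjustment over all such regions. The 8 samples of the LPS experiment shared 1 fit. Alternatives were no centring, quantile and cyclic loess scaling, summed scores, no trend, presence in 2 lists, a stricter score, another overlap, promoters by distance, a replicate block, and leaving out each sample. For presence in 2 lists, a missing score was set to the lowest score of the antibody's lists. The scripts were tested on simulated data. Named genes were the 12 largest called rises and falls, the 5 highest scores, the genes the study names, up to 4 called genes per gene list (2 by smallest p where none was called), and the 4 largest called changes per antibody. Members and lists were chosen with earlier results of these data known. Some genes are not reported here.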

Additional observations from a re-analysis of the deposited data

Results flagged for a closer look

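The change with 24 hr of IL-4 differed between cells with and without LPS at some promoter regions by a test of the difference itself, which was added after the data were seen. In the limma interaction over the 8 RNAPII-pS5 samples of the LPS experiment, 46 of 1408 promoter regions had a higher IL-4 change under LPS and 10 a lower one. Leaving out each sample in turn left 6 to 32 higher and 0 to 5 lower, with 7 and 0 without ctrl/ctrl replicate 1, 9 and 0 without IL-4/ctrl replicate 1, 6 and 0 without IL-4/ctrl replicate 2, and 16 and 4 without IL-4/LPS replicate 1. Without centring the counts were 90 and 8. With regions held in at least 2 samples and missing values set to the lowest score, they were 126 and 109. Cdk10 had an interaction of 3.45 (adjusted p = 0.000472), Supt16 had 2.67 (adjusted p = 0.00604), and Wdr61, a subunit of the PAF1 elongation complex, had 2.93 (adjusted p = 0.0121). G530011O06Rik had −2.38 (adjusted p = 0.0159), with RNAPII-pS5 scores of 7.09 and 14.3 in ctrl/ctrl, 8.47 and 8.19 in IL-4/ctrl, 32.4 and 30.8 in ctrl/LPS, and 5.27 and 6.15 in IL-4/LPS, where ctrl/LPS alone was high.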

How the results depend on the processing

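The counts after 1 hr of IL-4 (163 higher, 37 lower) became 873 and 227 without adjustment, 311 and 72 at an adjusted limma p of at most 0.1, 4 and 2 without centring, 70 and 47 with quantile and 85 and 48 with cyclic loess scaling, 61 and 16 with summed scores, 0 and 0 without the trend (376 and 170 at an unadjusted p of at most 0.05), 62 and 12 with regions held in at least 2 lists, and 246 and 66 with promoters taken within 1000 bp. Leaving out 1 sample gave 58 to 160 and 11 to 35. The cause of these shifts was not tested. Wherever values in at least 2 lists were used, missing values were set to the lowest score. Same-numbered replicates deviated together with r = 0.03 over all regions and 0.05 over promoter regions. This cannot show whether they share an animal or a culture, which the labels do not give. The replicate block gave 219 higher and 49 lower (for PU.1 12 and 5 in place of 6 and 0). Without centring, median changes were 0.061 for H3K27Ac, 0.83 for p300, 0.27 for PU.1, −0.34 for HDAC1, 0.11 for HDAC2, 0.27 for HDAC3, 0.017 for 24 hr of IL-4, −0.41 for LPS, and 0.58 for IL-4 before LPS. With values in at least 2 lists they were 0.068 for H3K27Ac, 0.16 for p300, −0.14 for PU.1, −0.040 for 24 hr of IL-4, −0.0016 for LPS, and 0.17 for IL-4 before LPS. Centred on all peaks of the antibody they were 0.11 for H3K27Ac and 0.15 for p300, and RNAPII-pS2 with treatment read from the peak names was −0.039.

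Leaving out 1 sample moved the medians between 0.070 and 0.089 for H3K27Ac, −0.061 and 0.11 for p300, −0.11 and −0.059 for PU.1, −0.074 and 0.033 for HDAC1, −0.041 and 0.064 for HDAC2, −0.12 and −0.00038 for HDAC3, −0.0027 and 0.054 for RNAPII-pS2, −0.035 and 0.016 for 24 hr of IL-4, −0.23 and −0.17 for LPS, and 0.37 and 0.39 for IL-4 before LPS. The p300 counts ran from 81 to 359 higher and from 28 to 392 lower, with 359 and 392 without untreated replicate 2, 286 and 123 without untreated replicate 1, 81 and 28 without IL-4 replicate 1, and 86 and 40 without IL-4 replicate 2, all over the 3757 regions with a peak in all 4 samples. Without untreated replicates 1 and 2 and IL-4 replicates 1 and 2 in turn, the higher and lower counts were 0 and 0, 0 and 0, 0 and 2, and 0 and 2 for HDAC1, 3 and 1, 2 and 1, 0 and 0, and 0 and 0 for HDAC3, 18 and 3, 8 and 1, 2 and 1, and 1 and 1 for PU.1, and 19 and 5, 21 and 5, 26 and 18, and 18 and 33 for RNAPII-pS2, with 0 and 0 each time for HDAC2. Fits that leave 1 sample in a group assume that it varies like the others. Promoter regions less other regions differed between treatments by 0.16 to 0.23 without 1 sample.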
